A study of Homo sapiens with 7 samples.

Results

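The 46 genes described here act in G2 and mitosis. They encode the kinases and cyclins of mitotic entry, the spindle assembly checkpoint, the outer kinetochore, the chromosomal passenger complex, cohesion factors, spindle proteins and the machinery of cytokinesis. They were taken by name from a list, and all 46 were found among the 19970 protein-coding genes on chromosomes 1 to 22 and X. The question was where Rb sits at their promoters. A gene counted as bound in a library when a peak overlapped the stretch from 2000 bp upstream to 500 bp downstream of any of its annotated transcription start sites (TSSs) by at least 1 bp.

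Rb was mapped by CUT&RUN, an assay in which an antibody directs a nuclease to a chromatin protein and the freed DNA is then sequenced. All 7 libraries were made from ZR-75-1, a human breast cancer line that carries the oestrogen receptor. Parental cells were given DMSO (2 libraries) or 500 nM palbociclib (2 libraries), and RB1 knockout (KO) cells were given DMSO (1 library) or 500 nM palbociclib (1 library), each for 4 days. A further library of palbociclib-treated parental cells used a non-targeting IgG2a antibody in place of the Rb antibody. By the study's methods the RB1 KO lines were grown from single sorted cells, so the KO libraries stand for a clone. The peak lists carry no expression values, so neither the cell line nor the loss of RB1 transcript could be checked in them.

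Rb, the product of the RB1 tumour suppressor gene, binds E2F transcription factors and holds their target genes silent. CDK4 and CDK6 phosphorylate Rb and release it, and palbociclib inhibits both kinases. E2F sites are known best from genes of the G1/S transition and DNA replication. Genes of G2 and mitosis are known instead for CHR elements (cell cycle genes homology regions) and CCAAT boxes, which recruit the MuvB complexes and NF-Y. MuvB joins the Rb relatives p107 and p130 in the repressive DREAM complex and joins B-MYB and FOXM1 when the genes are active.

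The promoters below show what lay under these peaks or, for unbound members, at the start site. TACC3 and CEP55 had the strongest palbociclib peaks among members bound in all 4 parental lists, ZWINT and MKI67 had the strongest among members bound with palbociclib only, and AURKB, BUB1 and SGO1 had no peak in any parental list. Sequences are GRCh38, 5′ to 3′ on the strand of the gene, without annotated exons of protein-coding genes. Capitals mark a match on either strand to the CHR element (TTTGAA or TTCGAA), to the box named CCAAT or to the E2F site (TTCCCGC or TTCGCGC or TTGCCGC or TTGGCGC). Read on the other strand, TTTGAA appears as TTCAAA and the CCAAT box appears as ATTGG.
TACC3, chr4:1712413-1712613, plus strand, around the summit: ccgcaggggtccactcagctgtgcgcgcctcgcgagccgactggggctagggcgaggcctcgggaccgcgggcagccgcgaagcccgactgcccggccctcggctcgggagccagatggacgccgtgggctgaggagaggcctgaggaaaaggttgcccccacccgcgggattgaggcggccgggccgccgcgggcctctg
CEP55, chr10:93496433-93496611, plus strand, around the summit: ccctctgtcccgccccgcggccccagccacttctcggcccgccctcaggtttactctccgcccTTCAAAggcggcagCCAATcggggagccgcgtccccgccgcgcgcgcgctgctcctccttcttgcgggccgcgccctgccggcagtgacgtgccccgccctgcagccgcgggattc
ZWINT, chr10:56361274-56361451, minus strand, around the summit: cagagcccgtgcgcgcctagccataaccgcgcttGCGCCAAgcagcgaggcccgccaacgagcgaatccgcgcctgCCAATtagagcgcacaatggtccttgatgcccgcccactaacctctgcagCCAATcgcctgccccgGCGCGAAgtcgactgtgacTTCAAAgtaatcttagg
MKI67, chr10:128126424-128126495, minus strand, just upstream of the canonical start site and of both summits: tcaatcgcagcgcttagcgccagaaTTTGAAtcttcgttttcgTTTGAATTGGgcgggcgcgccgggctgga
AURKB, chr17:8210601-8210725, minus strand, before the start site: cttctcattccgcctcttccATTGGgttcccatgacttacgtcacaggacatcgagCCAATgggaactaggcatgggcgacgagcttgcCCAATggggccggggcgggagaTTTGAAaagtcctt
BUB1, chr2:110678064-110678213, minus strand, before the start site: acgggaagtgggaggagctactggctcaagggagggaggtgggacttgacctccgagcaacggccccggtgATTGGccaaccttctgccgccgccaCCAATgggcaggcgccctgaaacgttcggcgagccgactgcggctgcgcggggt
SGO1, chr3:20186207-20186356, minus strand, before the start site: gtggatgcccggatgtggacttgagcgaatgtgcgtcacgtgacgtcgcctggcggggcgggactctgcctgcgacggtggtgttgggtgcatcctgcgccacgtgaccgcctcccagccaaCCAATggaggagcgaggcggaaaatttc
ZWINT held all 3 kinds of element in this stretch. MKI67 held a pair of CHR elements, the second of which runs into a reverse CCAAT box that shares a base with it. TACC3 held none of the 3, and the unbound AURKB promoter held a CHR element and several CCAAT boxes.

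Rb peaks at these promoters were few with DMSO and common with palbociclib. Of the 46 members, 8 and 7 had a promoter peak in DMSO replicates 1 and 2 (17.4% and 15.2%), and 39 had one in each palbociclib list (84.8%, 95% exact Clopper-Pearson interval 71.1 to 93.7%). Among the 19924 other protein-coding genes the shares were 5.19% and 4.25% in the DMSO lists, against 39.5% and 38.9% under palbociclib. The plot of shares by list shows that each palbociclib list covered a larger share of the members than either DMSO list, and that the members' share lay above that of the other genes in each parental list and in the IgG2a list. Neither RB1 KO list had a peak at a member, against 0.01% of other genes in an RB1 KO list. These lists held only 4 and 5 peaks on chromosomes 1 to 22 and X.

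**Figure D1:**
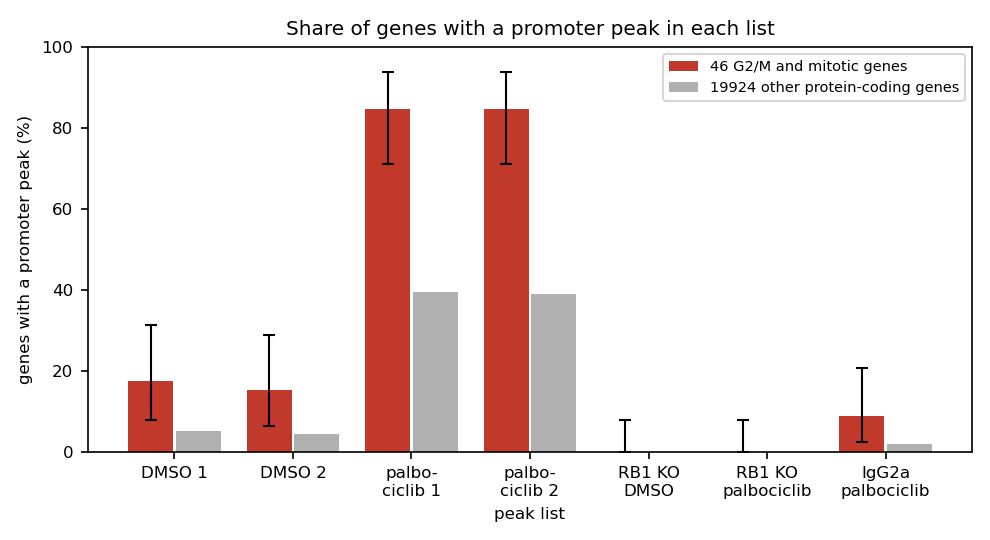
Percent of genes with a promoter peak in each of the 7 peak lists, for the 46 G2/M and mitotic genes (red) and the 19924 other protein-coding genes (grey); bars start at 0 and error bars are 95% exact binomial intervals of the member share, which cover counting error only. The members reach 84.8% in each palbociclib list and 0 in both RB1 KO lists.

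Taken by gene, 36 members (78.3%) were bound in both palbociclib lists, against 34.8% of the other genes. Both DMSO lists held 5 members (10.9%), against 2.89% of the other genes. The same 5 were in all 4 parental lists, where the share of other genes was also 2.89%. A further 5 members (10.9%) were bound in both palbociclib lists and 1 DMSO list, against 3.64% of the other genes. The remaining 26 (56.5%) were bound in both palbociclib lists and neither DMSO list, against 28.3% of the other genes, and are called gained. Another 6 (13%) were in 1 palbociclib list and no DMSO list, against 8.78% of the other genes. The last 4 (8.7%) were in no parental list, against 56.4% of the other genes. No member was bound with DMSO alone. The members' share was thus above that of other genes among bound genes and below it among unbound ones. With 2 libraries against 2, an exact permutation test of any single count cannot give a p below 0.33.

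The comparison rests on lists of unequal length. The DMSO lists had 996 and 816 peaks and the palbociclib lists 8399 and 8256, and when each parental list was cut to its 816 best peaks, 5 members stayed in both palbociclib lists (CDCA3, CEP55, NUSAP1, TACC3 and ZWINT), against 3.8% of other genes. Of these, CEP55, NUSAP1 and TACC3 stayed in both DMSO lists, and 1 member, ZWINT, was still gained. Read totals are not in the lists, so sequencing depth could not be compared directly. The lowest background in a list, an indirect guide to depth, was 0.571 and 0.465 fragments in the untreated libraries. In the treated ones it was 0.516 and 0.549 fragments.

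The 5 members bound in all 4 lists were TACC3, CEP55, NUSAP1, BUB3 and CDCA3. Values are the peak caller's fold enrichment at the summit, the ratio of fragment pileup plus 1 to local control background plus 1. TACC3, a spindle microtubule protein, had a fold enrichment of 12.1 and 7.46 with DMSO against 42.9 and 40.5 with palbociclib. CEP55, which acts in the final cut of cytokinesis, had 6.62 and 11.8 with DMSO against 28.2 and 26.9 with palbociclib. In both genes each palbociclib value lay above each DMSO value. NUSAP1, which bundles spindle microtubules, had 4.23 and 6.99 with DMSO against 24.1 and 26.2 with palbociclib. BUB3, a checkpoint protein of unattached kinetochores, had 3.46 and 5.08 with DMSO against 13.1 and 16.2 with palbociclib. CDCA3, a factor in the destruction of the mitotic entry inhibitor WEE1, had 3.2 and 5.32 with DMSO against 12.5 and 15.5 with palbociclib. The groups did not overlap in any of the 5, and overlap was not counted over the other regions. In the fit described next, 475 of the 476 regions in all 4 parental lists (99.8%) were called higher with palbociclib. A higher value with palbociclib is thus no trait of members.

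A limma fit on log2 fold enrichment over the 476 regions called in all 4 parental lists called all 5 of these member regions higher with palbociclib, and the same was true of 475 of the 476 regions (99.8%). The log2 difference, palbociclib minus DMSO, was 2.21 ± 0.265 (SE) at NUSAP1 (limma, Benjamini-Hochberg adjusted p = 3.18e-06) and 2.13 ± 0.262 at TACC3 (limma adjusted p = 3.82e-06). It was 1.64 ± 0.277 at CEP55, the smallest of the 5 (limma adjusted p = 5.43e-05), with BUB3 at 1.80 and CDCA3 at 1.75. The median over the 5 was 1.80 and over all 476 regions 1.90. Once each library was centred on its median over all regions, the median of the 5 was -0.13 and none of them passed the threshold, so the difference at members was that of bound regions in general. Regions without a DMSO peak have no DMSO value and are not in this fit.

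The 5 members bound in both palbociclib lists and 1 DMSO list included the gene of Aurora A, the kinase of centrosome maturation. AURKA had 5.33 in DMSO replicate 2 only and 18.4 and 13.8 with palbociclib. TOP2A, the topoisomerase that untangles sister chromatids, had 6.62 in DMSO replicate 1 only and 20.8 and 16.6 with palbociclib. PLK4, the kinase of centriole duplication, had 6.15 in DMSO replicate 1 only and 17.8 and 19.8 with palbociclib. BORA, a cofactor of Aurora A in the activation of PLK1, had 4.55 in DMSO replicate 2 only and 13.4 and 17.2 with palbociclib. In these 4 the palbociclib values lay well above the DMSO value. DLGAP5, a spindle assembly protein, had the smallest ratio of palbociclib mean to DMSO value among the 10 members with a DMSO peak, 1.53, from 6.84 in DMSO replicate 1 and 9.18 and 11.8 with palbociclib. The other 9 had ratios from 2.83 at TOP2A to 4.48 at NUSAP1. Such ratios were not computed for other genes, so these have no background.

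Among the 26 gained members, ZWINT and MKI67 stood highest. ZWINT, which links the outer kinetochore to checkpoint proteins, had 26.4 and 19.6 in the palbociclib lists. MKI67, the gene of the proliferation marker Ki-67, had 20.1 and 17.0. CDC25C, a phosphatase that activates CDK1, had 16.8 and 12.1. The peaks of these 3 were comparable in fold enrichment with those of members that were already called with DMSO. CDK1 itself, the kinase of mitotic entry, had 9.14 and 7.8, near the middle of the list. Its partners in the kinase, cyclin B1 and cyclin B2, were lower: CCNB1 had 5.87 and 5.33 and CCNB2 4.09 and 4.22, the lowest mean of all 36.

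Other gained members with low values were BIRC5, the survivin subunit of the passenger complex, with 5.05 and 4.55, and ECT2, the exchange factor that activates RhoA for cytokinesis, with 4.89 and 4.54. ASPM, a spindle pole protein, had 7.15 and 3.49, and ANLN, which links actin to the cleavage furrow, had 4.1 and 7.1. BUB1B, the checkpoint protein BubR1, had 6.44 and 5.32. The replicates of ASPM differed by more than those of BIRC5 or ECT2. In the plot of fold enrichment by gene, gained members span the whole range from CCNB2 to ZWINT, and their upper end overlaps the members that also had a DMSO peak.

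**Figure D2:**
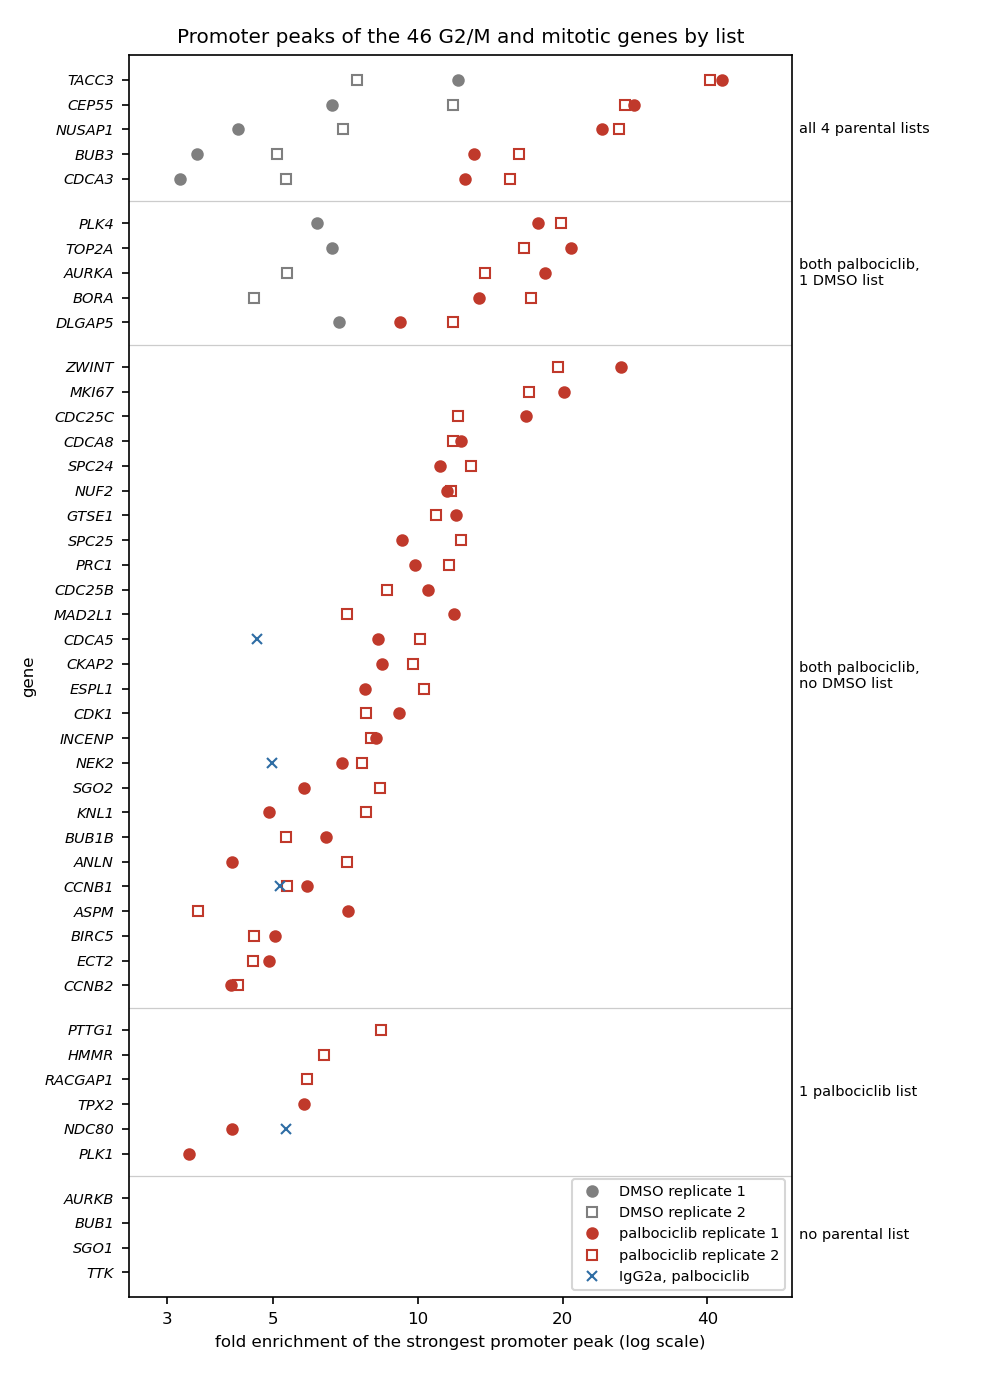
Fold enrichment of the strongest promoter peak of each of the 46 genes (rows, log scale), with DMSO in grey, palbociclib in red and IgG2a as blue crosses; filled circles are replicate 1 and open squares replicate 2, and a missing symbol means that no peak was called. Where a gene has both, every palbociclib point lies to the right of its DMSO points, from DLGAP5 (6.84 with DMSO, 9.18 and 11.8 with palbociclib) to TACC3 (12.1 and 7.46, then 42.9 and 40.5). This was not counted for other genes, but limma called 475 of the 476 regions in all 4 parental lists (99.8%) higher with palbociclib.

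A gained call says that no DMSO peak passed the threshold, not that the DMSO level was 0. The number of fragments over each summit was recovered from the fold enrichment and p-value of the peak, and gained members had 11 to 41 fragments in a palbociclib library. At the local background of each gained member with palbociclib, a DMSO list would have needed 6 to 15 fragments for a call. The mean palbociclib pileup was 1.14 times this need at CCNB2, 5.71 times at ZWINT and 2.27 times in the median, and it was under 2 times in 9 of the 26. At CCNB2, ECT2 (1.2 times) and BIRC5 (1.29 times), a DMSO pileup only slightly below that with palbociclib was not detectable as a peak.

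The 6 members in 1 palbociclib list had few fragments, but 16 of the 26 gained members also had under 20 in a palbociclib library. PLK1, the polo-like kinase of mitotic entry and spindle assembly, had a fold enrichment of 3.34 on 9 fragments in replicate 1. NDC80, the microtubule-binding subunit of the outer kinetochore, had 4.1 on 17 fragments, and TPX2, the spindle activator of Aurora A, had 5.79 on 16 fragments, both in replicate 1 only. The other 3 were called in replicate 2 only. HMMR, a spindle pole protein, had 6.37 on 12 fragments, PTTG1, the securin that restrains separase, had 8.39 on 12, and RACGAP1, a subunit of centralspindlin, had 5.88 on 11. Of these, PTTG1 alone lay above the median of its list's promoter peaks, at percentile 55.4.

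AURKB, BUB1, SGO1 and TTK had no promoter peak in any of the 7 lists. AURKB is the kinase of the chromosomal passenger complex, BUB1 and TTK are checkpoint kinases, and SGO1 protects centromeric cohesion. Partners of theirs were bound: the other passenger genes CDCA8, INCENP and BIRC5 were all gained, SGO2 was gained, and BUB3 was in all 4 lists.

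By function, each of the 8 groups of members had genes bound in both palbociclib lists. These were 9 of 11 kinase, cyclin and phosphatase genes (median of the mean fold enrichment 9.54), 3 of 5 checkpoint genes (9.52), 5 of 6 outer kinetochore genes (11.6), 3 of 3 passenger genes (8.08) and 3 of 5 cohesion genes (9.01). The spindle group had 6 of 8 (11.0) and the cytokinesis group 4 of 5 (8.15). The 3 genes of chromosome structure and mitotic entry, MKI67, TOP2A and CDCA3, were all bound, with a median of 18.6. The 10 members in a DMSO list (21.7% of 46, against 6.56% of other genes) fell into 5 groups, with 3 each in the spindle and kinase groups, 2 in that of chromosome structure and 1 each in the checkpoint and cytokinesis groups, and groups of this size were not compared with each other. The outer kinetochore spread widely, with ZWINT highest, SPC24, which anchors the NDC80 complex together with SPC25, at a mean of 12.0, NUF2 at 11.6, SPC25 at 10.8 and KNL1, the scaffold for BUB proteins, at 6.34.

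The peaks of the 36 members were somewhat higher than those of other bound genes in the median, but no more frequent among the strongest. Their mean palbociclib fold enrichment had a median of 10.6 (quartiles 7.23 and 14.8), with replicate medians of 10.2 and 11.3, and the 6938 other genes in both lists had a median of 8.35, with replicate medians of 8.48 and 8.32. In rank, the median member stood at percentile 67.6 of all promoter peaks of a list and the median other gene at 53.6. At the top, TACC3, CEP55, NUSAP1 and ZWINT, 4 of 36 (11.1%), stood above percentile 90, against 10.5% of the other genes. For comparison, a list of 53 genes of the G1/S transition and DNA replication was used. It was written from general knowledge, but with earlier results of these data known, so it is no independent benchmark. All 53 were bound in both palbociclib lists with a median fold enrichment of 18.1, and 47.2% of them stood above percentile 90. Of those G1/S genes 73.6% were also in a DMSO list, against 27.8% of the 36 members and 18.8% of the other genes in both palbociclib lists. A second list of 61 further mitotic genes, among them kinesins, centromere proteins and condensin subunits, had 50 genes in both palbociclib lists, 38 of them gained, 6 in no parental list and a median of 9.48. This list behaved like the members in each of these counts. These are descriptions of the same libraries without a test.

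Summits lay close to the start sites. For the 36 members the median distance from summit to the nearest TSS of the gene was 89.5 bp, against 106 bp for other genes, and 33 of 36 (91.7%) were within 250 bp, against 82.3%. The summit was upstream in both lists for 20 members (55.6%), against 48% of the other genes. It was downstream in both for 4 members, against 1999 of the 6938 other genes, and at or across the TSS for 12 members. The 2 palbociclib lists gave medians of 84 and 87.5 bp for members and 103 and 101 bp for other genes, and placed the summit of the same member a median of 40 bp apart. ESPL1, the gene of separase, had summits 7 and 4 bp downstream, and MAD2L1, the checkpoint protein MAD2, had them 2 and 6 bp upstream. The peaks of CDK1 were 26 and 31 bp downstream. AURKA had summits 206 and 189 bp upstream and TACC3 345 and 349 bp upstream. At the other end, CDCA3 had them 1049 and 971 bp upstream. The replicate summits lay under 50 bp apart for 21 of the 36 (58.3%), against 45% of the other genes. Those of 6 members lay from 213 bp apart at ECT2 to 508 bp at KNL1, the others being GTSE1, SPC25, ASPM and CCNB1. At CDC25B the strongest peaks of the 2 lists were different peaks. In the plot of summit positions each point is set against the start site nearest to it, so where a gene has several start sites, as at CKAP2 and KNL1, the plotted gap differs from the distance between the summits.

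**Figure D3:**
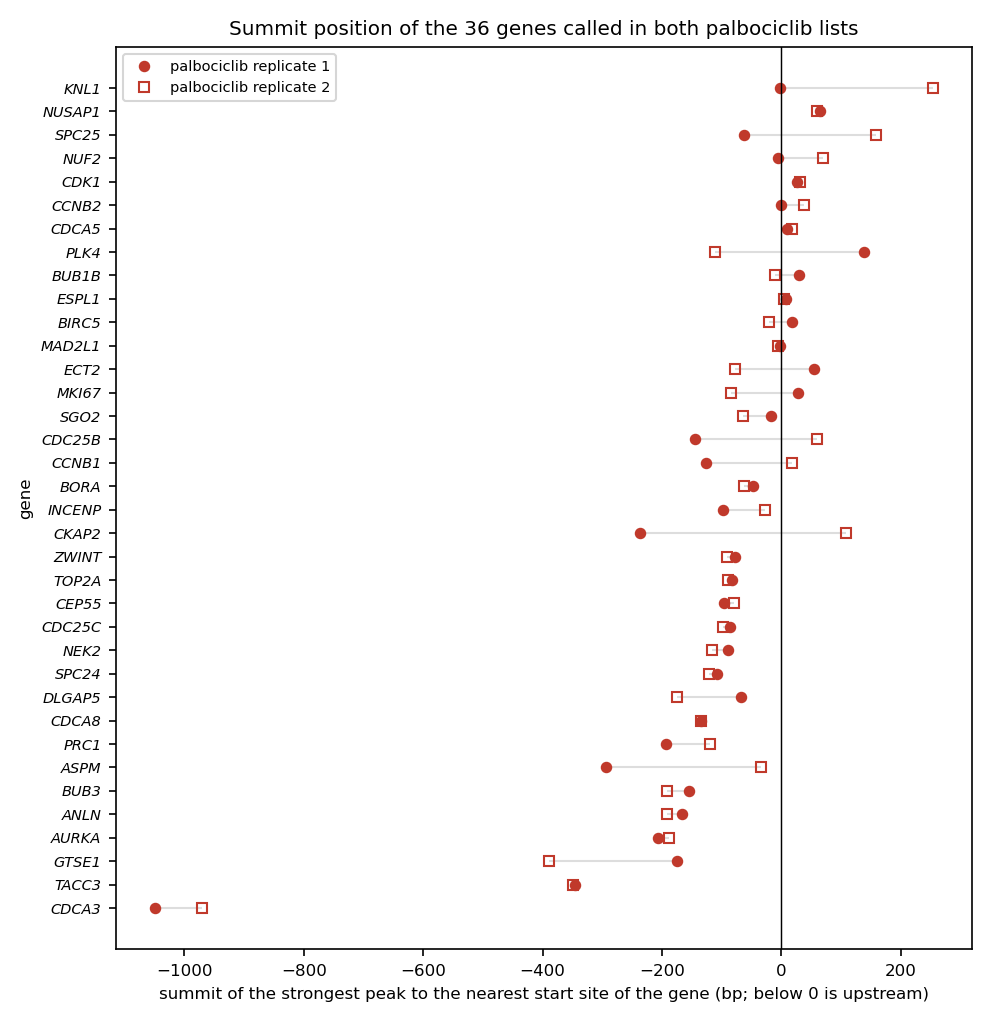
Distance in bp from the summit of the strongest palbociclib peak to the nearest annotated start site of the same gene, for the 36 genes called in both lists (rows); filled circles are replicate 1, open squares replicate 2, a grey line joins them, and values below 0 are upstream. Most points lie within 250 bp of the start site, and CDCA3 stands apart at 1049 and 971 bp upstream.

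The position also shows that some peaks lay nearer to another gene. The strongest palbociclib summit was nearest to the member's own canonical TSS in both lists for 31 of the 36, and nearest to another gene in at least 1 list for 5 (13.9%), against 20.5% of other bound genes. AURKA faces CSTF1 on the opposite strand with start sites 430 bp apart, and its summits lay 102 and 119 bp from the CSTF1 TSS. BORA faces MZT1, with summits 73 and 57 bp from the MZT1 TSS. CDCA3 faces USP5, and its summits lay 191 and 113 bp from the USP5 TSS but 1055 and 977 bp from the canonical CDCA3 TSS. These shared promoters cannot be given to either gene of a pair. CDC25B, the phosphatase, had its strongest peak in replicate 2 nearest to CENPB, a gene named here after its values were seen.

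TACC3 was the clearest case. Its strongest peak lay 9008 and 9012 bp upstream of the canonical TACC3 TSS with palbociclib, 345 and 349 bp upstream of another annotated TACC3 start site and 194 and 190 bp upstream of SLBP, the histone mRNA binding protein of S phase, which was named after its values were seen and belongs to the G1/S list. The stretch printed for TACC3 is this region. A second peak at the canonical TACC3 TSS, shared with TMEM129 on the opposite strand, had a fold enrichment of 12.9 and 12.0 with palbociclib and was in neither DMSO list. Counted by its canonical TSS, TACC3 would therefore be a gained member.

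Across the members, a gene on the opposite strand with a TSS within 1000 bp was present for 8 of 46 (17.4%), against 10% of other genes. These pairs were AURKA with CSTF1, BORA with MZT1, CDCA3 with USP5, CDCA5 with ZFPL1, HMMR with NUDCD2, NDC80 with METTL4, NUSAP1 with OIP5 and TACC3 with TMEM129. Of the 10 members with a DMSO peak 5 had such a neighbour, and of the 26 gained members only CDCA5 had one (3.85%). The 5 include TACC3, whose DMSO summits lay 9060 and 9008 bp upstream of its canonical TSS and not at the pair with TMEM129. Among other genes the shares were 26.3% with a DMSO peak and 17% for gained genes. When a gene was counted only through peaks nearest to its own canonical TSS, members in both DMSO lists went from 5 to 2, BUB3 and CEP55, while 32 remained in both palbociclib lists and 27 were gained.

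The IgG2a list had promoter peaks at 4 members (8.7%), against 1.94% of other genes. NEK2, a centrosome kinase, had a fold enrichment of 4.97 on 10 fragments with IgG2a and 6.94 and 7.63 on 29 and 33 fragments with the Rb antibody and palbociclib. CCNB1 had 5.16 on 7 fragments with IgG2a, beside 5.87 and 5.33 on 17 and 21 fragments with Rb and palbociclib. At both the Rb libraries held more fragments than the IgG2a library. CDCA5, the cohesin protector sororin, had an IgG2a peak of 4.63 on 6 fragments that lay nearer to ZFPL1 and did not overlap the Rb peaks of CDCA5, so the values are not of the same site. At NDC80 the IgG2a peak, 5.31 on 7 fragments, had a higher fold enrichment than the palbociclib peak of 4.1 on 17. Their local backgrounds were 0.506 and 3.39 fragments. Leaving out Rb peaks that overlapped an IgG2a peak removed CCNB1 and NEK2 and left 34 members in both palbociclib lists and 24 gained. The control used to call the IgG2a list is not given in the sources used here, so its fold enrichments cannot be compared directly with those of the Rb lists.

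Sequence elements were searched within 100 bp of a palbociclib summit of each of the 36 members, on both strands, and in the 6008 other promoter regions called in both palbociclib lists. The summit with the lowest q in a region was used, which at CCNB1 and CEP55 was not the summit with the higher fold enrichment. CHR elements were in 15 member windows (41.7%), against 4.18% of the other regions and 0 of 57 regions of G1/S genes. CCAAT boxes were in 18 (50%), against 25.7% and 36.8%. E2F sites were in 11 (30.6%), against 24.2% of the other regions and 56.1% of the G1/S regions, which are among the 6008. Within 50 bp of the summit the E2F share was 8.33% at members and 11.8% at other regions, the reverse order. Against the G1/S regions, member windows thus held CHR elements more often (41.7% against 0) and E2F sites less often (30.6% against 56.1%). Against all other regions, the CHR share (41.7% against 4.18%) differed more than the E2F share (30.6% against 24.2%). The windows differ in base composition, with a median G+C of 63.7% at members, 69.7% at G1/S regions and 70.6% at all other regions, and its part in these shares was not tested. TTCGAA reads the same on both strands, and a CCAAT box can overlap a CHR element or an E2F site.

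**Figure D4:**
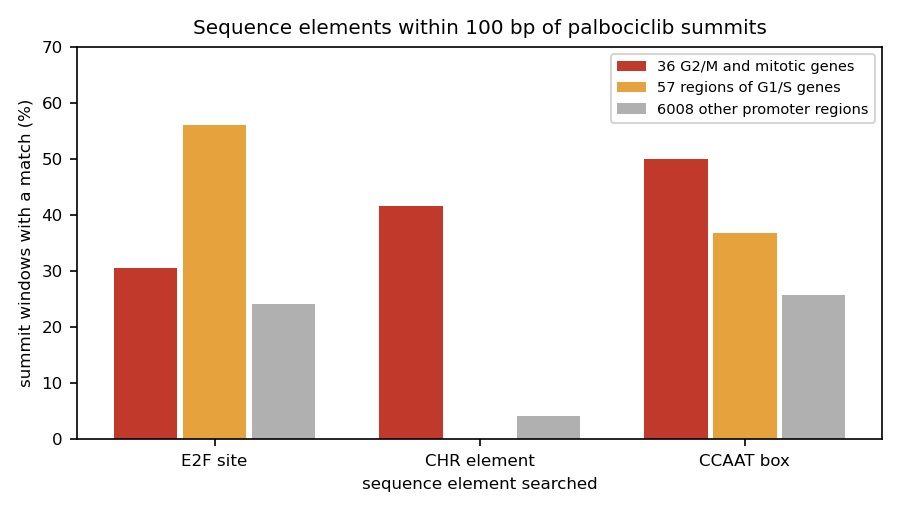
Percent of windows of 100 bp to each side of the palbociclib summit that hold an E2F site, a CHR element or a CCAAT box on either strand, for the 36 members (red), 57 regions of G1/S genes (orange) and 6008 other promoter regions (grey). CHR elements are in 41.7% of member windows, in none of the G1/S regions and in 4.18% of the others.

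The elements were spread over different members. A CHR element without an E2F site was found at 9, BIRC5, BORA, BUB1B, CCNB2, CEP55, ESPL1, MAD2L1, MKI67 and TOP2A (25%, against 3.21% of other regions). Both were found at 6, AURKA, CDK1, CKAP2, DLGAP5, ECT2 and ZWINT (16.7%, against 0.965%), and an E2F site without a CHR element at 5, ANLN, BUB3, CDCA5, NUSAP1 and PLK4 (13.9%, against 23.2%). None of the 3 elements was in the window of 8, CCNB1, CDCA3, GTSE1, KNL1, NUF2, PRC1, SPC25 and TACC3 (22.2%, against 54.9%). This holds for these windows only, as the RefSeq promoters compared below held elements at CCNB1, CDCA3, GTSE1, NUF2, PRC1 and SPC25. The CDCA3 and TACC3 windows lay nearer to USP5 and SLBP. At CCNB1, GTSE1, KNL1 and SPC25 the replicate summits lay more than 100 bp apart, so the window depends on the summit used. E2F sites were in 5 of the 10 members with a DMSO peak (50%) and 6 of the 26 gained members (23.1%), against 24.2% of all other regions. The other regions were not split by DMSO peak, so the contrast between these classes has no background. Members with a CHR element in the window had a median fold enrichment of 9.52 and those without 10.8, and members with and without an E2F site had 10.5 and 10.7, so the medians were not higher with either element.

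Members, bound or not, were compared in the same way through their RefSeq promoters (GRCh38, 250 bp before to 50 bp after the TSS), which were matched for 39 of the 46 genes. CHR elements were in 29 of these (74.4%), against 13.3% of 15277 other promoters, and CCAAT boxes also in 29 (74.4%), against 36.5%. E2F sites were in 15 (38.5%), against 17.3%. All 15 were among the 32 promoters of members bound in both palbociclib lists, and 0 of the 7 promoters of members in 1 or no palbociclib list had one, whereas 5 of those 7, BUB1, HMMR, NDC80, PLK1 and SGO1, had a CHR element. These windows are not the stretches printed above. The CHR matches of BUB1 and SGO1 reach past the start site, where their printed stretches end, and the RefSeq windows of AURKB start downstream of its printed stretch and hold no CHR element, although the printed stretch does. Of the 7 promoters, 3 belong to members in no parental list and the rest to members with a peak in 1 palbociclib list. With 7 promoters this is a count and not a test.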

How the data were processed

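By the study's methods, reads were trimmed (BBDuk) and mapped to hg38 (Bowtie2 2.3.4.1), reads from blacklisted regions or mitochondria were dropped and duplicates were retained. The authors called peaks in every library separately, using MACS2 2.2.7.1 at q 0.05 against IgG. The deposited lists give for each peak a fold enrichment (a ratio), −log10 p and −log10 q, a score (−log10 q times a constant, not used here) and a summit. GENCODE 44 on GRCh38, the build of the lists, gave the start sites. Peaks on other contigs were left out. Where a gene had several promoter peaks, the strongest stood for it. Pileup and background were solved from fold enrichment and p (largest misfit 0.00551 in −log10 p). Regions in all 4 parental lists were tested with limma 3.58.1 on log2 fold enrichment, adjusted over all regions at 0.05, after a check on simulated data. The study's methods call the replicates biological but the labels name no separate cultures, so p-values measure the spread between these libraries. Intervals cover counting error only, and read totals are not in the lists.

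The members and comparison lists were chosen with earlier results of these data known. Values are given by library for members in all 4 parental lists or in 1 or no palbociclib list, the 5 highest and 5 lowest others, members with an IgG2a peak and CCNB1, CDK1, PLK1, AURKA, AURKB, BUB1, MKI67 and TOP2A. Alternatives were stricter peak thresholds, lists of equal length, other promoter windows and start sites, reciprocal overlap, other summit windows and leaving out each library.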

Additional observations from a re-analysis of the deposited data

How the results depend on the processing

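Members in both palbociclib lists numbered 30 to 39, and gained members 21 to 29, under every alternative tried but lists of equal length, which gave 5 and 1, with 3 members in both DMSO lists, 3.8% of other genes in both palbociclib lists and a median fold enrichment of 25.1. This alternative keeps fewer palbociclib peaks by construction. RB1 KO peaks at members stayed at 0 under the 7 alternatives run for them, all of which drop peaks, narrow the window or use fewer start sites and so could not have given more. A −log10 q of at least 5 gave 2 members in both DMSO lists, 0 with IgG2a, 26.8% of other genes, a median fold enrichment of 11.5 and a median summit distance of 96.5 bp. A fold enrichment of at least 5 gave 2 members in both DMSO lists, 2 with IgG2a, 27.1% of other genes and a median of 11.5. The share of other genes was 34.4% with the summit inside the window, 34% with 500 bp to each side, 32.2% with canonical start sites (summit distance 125 bp), 33.6% with start sites of coding transcripts (96.5 bp) and 29.8% with 50% reciprocal overlap (3 members in both DMSO lists). Of the alternatives chosen after seeing the data, a common p cutoff gave 32.8% of other genes and peaks nearest to the gene's own canonical start site gave 28.6%, with 2 members in both DMSO lists; the cause of these changes was not tested.

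Without a library, DMSO members ranged from 7 to 8 (8 without DMSO replicate 2, by construction since 1 list remains), the share of other genes from 38.9 to 39.5%, the median fold enrichment from 9.24 to 10.3, E2F windows from 30.8 to 35.9% and CHR windows from 41 to 48.7%. With windows of 50 bp to each side, E2F sites were in 8.33% and CHR elements in 22.2% of member windows, against 11.8% and 1.85% of other regions, and with 250 bp in 52.8% and 80.6%, against 47.1% and 11.7%. At 50 bp the E2F share was thus below that of other regions.

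In limma, centring each library on its median over all regions left 0 member regions past the threshold, with a median of -0.13, and a −log10 q of at least 5 left 2 member regions, both past it. With 50% reciprocal overlap between lists no member region remained, so no value was obtained. The replicate numbers are shared, but the replicate differences of the 2 groups correlated at only 0.0748 over 476 regions, so they share a number and no known pairing. With the replicate block the fit called 5 member regions, with a median of 1.80, and 475 regions in all, as it did without the block. Leaving out 1 library gave 5 to 7 member regions and medians from 1.58 to 1.95, with the lone library of a group assumed to vary like the others.

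The lists hold only peaks that passed a threshold, so a level below it is unknown, and weak members such as CCNB2, ECT2 and BIRC5 are the least certain.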
